A study of Mus musculus with 5 samples.

Results

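The genes described here are the mouse histone genes, the protein-coding genes whose RefSeq symbol names a histone H1, H2A, H2B, H3 or H4 (symbols with a hyphen, which are MHC genes, were left out). There are 102 of them among 21883 protein-coding genes. They were divided into 66 clustered genes, 8 somatic replacement genes and 28 other variants, most of them known from the male germline. BRG1 binding was measured by ChIP-seq in bone marrow-derived macrophages (BMDMs) of wild-type (WT) mice and of mice without Baf60a (KO), each untreated or treated with oxidised low-density lipoprotein (oxLDL). BRG1 is the ATPase of SWI/SNF complexes, which slide and evict nucleosomes, and BAF60a, the product of Smarcd1, is a subunit of these complexes. The series holds 1 BRG1 library for each of the 4 groups and 1 input library, which was not analysed here. The labels used here do not state the kind of Baf60a deletion, the age, sex and number of mice, or the dose and time of oxLDL. A single library stands for each group, so replicate error is unknown and no p-value is given, and a difference between lists is a difference between these libraries.

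Histones are the proteins that DNA wraps around in nucleosomes. Most clustered genes are replication-dependent: they lie close together in a few groups, have short bodies that mostly lack introns, and are transcribed in S phase to package new DNA. The class was set by symbol here, so it also holds H4f16, its only gene on chromosome 6. Any germline variants among the clustered genes were kept in, while those outside were set apart from the somatic replacement genes. Replacement histones are mostly made through the cell cycle, from genes outside the main histone groups, some of which have introns. They are exchanged into chromatin outside replication, H3.3 and H2A.Z at active genes and promoters for example. The somatic replacement genes that met the symbol rule were H1f0, H1f10, H2aj, H2ax, H2az1, H2az2, H3f3a and H3f3b. The macroH2A genes have other symbols and were not included.

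The promoters of the 2 classes differ in composition, and 6 of those whose genes carried a BRG1 peak are shown to make that visible. Each is a RefSeq promoter on GRCm38.p6, from 250 bases before to 50 after the start. Capitals mark 3 motifs searched on both strands: the CCAAT box (CCAAT, or ATTGG on the other strand), which binds NF-Y, the TATA box (TATAAA or TTTATA), and the octamer (ATTTGCAT or ATGCAAAT), which binds POU factors such as OCT1. None of the 3 contains another. The first 3 are replacement genes, at chr15:79027962-79028261 on the plus strand (H1f0), chr11:116024455-116024754 on the minus strand (H3f3b) and chr1:180813556-180813855 on the minus strand (H3f3a). The other 3 are clustered genes, at chr13:21716134-21716433 on the minus strand (H2bc13), chr3:96269450-96269749 on the plus strand (H2bc18) and chr3:96219635-96219934 on the plus strand (H2ac21).
H1f0: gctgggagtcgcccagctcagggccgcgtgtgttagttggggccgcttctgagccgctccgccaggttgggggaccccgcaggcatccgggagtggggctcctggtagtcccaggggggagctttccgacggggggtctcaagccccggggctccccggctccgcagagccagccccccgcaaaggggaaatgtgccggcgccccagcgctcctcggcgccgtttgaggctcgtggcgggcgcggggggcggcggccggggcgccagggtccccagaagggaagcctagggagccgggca
H3f3b: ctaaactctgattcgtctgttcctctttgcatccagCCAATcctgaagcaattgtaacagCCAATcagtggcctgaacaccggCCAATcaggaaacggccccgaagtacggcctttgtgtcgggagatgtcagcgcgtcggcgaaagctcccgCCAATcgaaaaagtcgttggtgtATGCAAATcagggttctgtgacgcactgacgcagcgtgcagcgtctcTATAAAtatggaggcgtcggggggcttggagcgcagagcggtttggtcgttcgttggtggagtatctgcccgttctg
H3f3a: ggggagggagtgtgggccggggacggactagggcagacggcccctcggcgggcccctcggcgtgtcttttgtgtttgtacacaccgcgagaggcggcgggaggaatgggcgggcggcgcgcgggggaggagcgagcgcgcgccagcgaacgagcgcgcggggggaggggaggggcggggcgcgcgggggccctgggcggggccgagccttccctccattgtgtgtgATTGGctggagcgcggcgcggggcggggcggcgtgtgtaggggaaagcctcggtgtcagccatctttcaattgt
H2bc13: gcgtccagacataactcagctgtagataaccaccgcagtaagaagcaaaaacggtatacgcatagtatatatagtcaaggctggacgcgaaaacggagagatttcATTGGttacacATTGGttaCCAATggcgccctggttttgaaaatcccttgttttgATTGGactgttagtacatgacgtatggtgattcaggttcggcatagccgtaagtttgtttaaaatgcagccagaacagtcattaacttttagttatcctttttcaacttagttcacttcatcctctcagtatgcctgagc
H2bc18: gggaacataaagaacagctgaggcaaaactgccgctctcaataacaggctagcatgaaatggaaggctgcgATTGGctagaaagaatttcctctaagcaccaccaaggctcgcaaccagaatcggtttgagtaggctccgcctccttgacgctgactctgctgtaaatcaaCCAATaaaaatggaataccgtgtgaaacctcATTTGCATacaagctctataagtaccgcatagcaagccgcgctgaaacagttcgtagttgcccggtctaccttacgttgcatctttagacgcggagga
H2ac21: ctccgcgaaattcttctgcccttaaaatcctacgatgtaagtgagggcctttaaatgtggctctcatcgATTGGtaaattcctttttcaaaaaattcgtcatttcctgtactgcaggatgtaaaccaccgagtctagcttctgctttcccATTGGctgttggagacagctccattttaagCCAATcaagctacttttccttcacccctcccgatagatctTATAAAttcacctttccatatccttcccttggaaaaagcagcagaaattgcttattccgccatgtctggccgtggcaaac

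H1f0, which encodes the linker histone H1.0 of differentiated cells, held none of the 3 motifs and was 75.0% G and C. H3f3b, 1 of the 2 genes for H3.3, held 4 CCAAT boxes, an octamer 74 bases and a TATA box 27 bases before the start; the RefSeq start used lies inside its gene model, at 116024504. H2bc13 held 4 CCAAT boxes and no exact TATAAA, H2bc18 had an octamer 48 bases upstream, and H2ac21 a TATA box 30 bases upstream. Promoter entries were found for 96 of the 102 genes, and for H2ax, H2bc21, H2bc4, H3c1, H3c7 and H4c14 none is shown. Over the 61 clustered genes with an entry, 85.2% held a CCAAT box, 57.4% a TATA box and 23.0% an octamer, against 42.3%, 14.8% and 1.9% of all 17491 protein-coding genes with an entry. The octamer occurred in 7 of 15 clustered H2B genes and 7 of 18 clustered H2A genes and in none of the clustered H1, H3 and H4 genes. CCAAT boxes were found in all clustered H1, H2A, H2B and H3 promoters searched and in 3 of 12 H4 promoters. Of the 7 replacement promoters, 5 held a CCAAT box and 1 a TATA box. Median G and C content was 71.3% over those 7, 45.3% in the clustered class and 56.3% in all. A motif match describes letters in this window and does not show that a factor binds there.

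A gene was counted as having a peak when the summit of a deposited peak fell inside the gene or at most 1 kb outside. No histone gene had one in the untreated WT or KO list, where 0.621% and 0.315% of all protein-coding genes did. A count of 0 among 102 genes allows a share of up to 2.94%, taking 3 counts as the limit, or 3.63% as the upper Wilson bound, so the untreated lists, with 237 and 139 peaks in all, are too short to place the histone genes below the rest. The summit nearest to any histone gene was 45.0 kb away in WT and 224 kb in KO. All values that follow therefore come from the 2 oxLDL lists, with 9907 peaks in WT and 4668 in KO.

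Under oxLDL, 13 of the 102 histone genes had a peak in WT (12.7%, Wilson 95% interval 7.6 to 20.6), where 21.6% of all protein-coding genes did. In oxLDL KO the count was 7 (6.86%, interval 3.36 to 13.5), where 13.1% of all did. The overall share of the histone genes thus lay below that of all genes in both lists, though in oxLDL KO the interval includes the value of all genes. On X and Y, where no list held a peak, lie 22 of them. Among the 80 on autosomes the shares were 16.2% (interval 9.75 to 25.8) and 8.75% (interval 4.3 to 17.0). Both intervals include the share of all genes, and also that of the 20661 autosomal genes, of which 4736 and 2877 had a peak. These intervals cover counting error only, and neighbouring genes can share a summit, so genes are not independent.

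How clustered and replacement genes compare depends on which variants are counted as replacement. All 36 genes outside the clusters gave 5 with a peak in oxLDL WT (13.9%, interval 6.08 to 28.7) and 3 in oxLDL KO (8.33%, interval 2.87 to 21.8), near the clustered shares given next. Of these 36, 22 lie on X and Y, where no list held a peak, while all clustered genes are autosomal. The 14 on autosomes gave the same 5 and 3. Those with a peak were all somatic replacement genes, whose own share was higher than the clustered one. The intervals of those classes overlap in oxLDL KO but not in oxLDL WT, and the difference was not tested. Of the 8 somatic replacement genes, 5 had a peak in oxLDL WT (62.5%, interval 30.6 to 86.3) and 3 in oxLDL KO (37.5%, interval 13.7 to 69.4). Counting either list, 6 of the 8 had one, of 17 histone genes in all (16.7%), where 24.5% of all protein-coding genes did. Of the 66 clustered genes, 8 had a peak in oxLDL WT (12.1%, interval 6.27 to 22.1) and 4 in oxLDL KO (6.06%, interval 2.38 to 14.6), and 11 in either. None of the 28 other variants did, of which 22 lie on X and Y. The 6 autosomal ones are H1f7, H1f8, H2al2a, H2bl1, H3f3c and H3f4, and the closest of them to a summit was H3f4, 5.75 kb from one in oxLDL WT.

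Length bears on these shares, since a longer body offers more room for a summit. The median body was 491 bp in the clustered class and 2364.5 bp in the somatic replacement class. Of protein-coding genes up to 1 kb long that are not histone genes, oxLDL WT had a peak at 10 of 1492 (0.67%) and oxLDL KO at 5 (0.335%), and among those from 1 to 5 kb the shares were 9.11% and 5.11%. Over 5 kb they were 26.1% and 16.0%, and 2 of the somatic replacement genes are that long, H3f3a (11046 bp, peak in oxLDL WT) and H2az2 (17286 bp, peak in oxLDL KO). By length, 5 of 11 histone genes from 1 to 5 kb had a peak in oxLDL WT (45.5%, interval 21.3 to 72.0) and 1 of 6 over 5 kb (16.7%, interval 3.01 to 56.4). In oxLDL KO it was 3 of 11 (27.3%, interval 9.75 to 56.6) and 1 of 6 (16.7%). The 5 are H2bc21 and the somatic replacement genes H1f0, H2aj, H2ax and H3f3b, so counts by length and by class are not separate. The 61 clustered genes up to 1 kb gave 7 in oxLDL WT (11.5%, interval 5.67 to 21.8) and 3 in oxLDL KO (4.92%, interval 1.69 to 13.5). Olfactory and vomeronasal receptor genes make up 971 of the 1577 genes of this length. Without them and the histone genes, oxLDL WT had a peak at 10 of 521 (1.92%, interval 1.05 to 3.5) and oxLDL KO at 5 (0.96%). The other genes in these shares include genes on X and Y, where no list held a peak, while the clustered and somatic replacement genes are all autosomal. On autosomes lie 356 of the 521, 1321 of the 1492 and 3174 of the 3446 from 1 to 5 kb, so the shares of autosomal genes are higher.

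**Figure D1:**
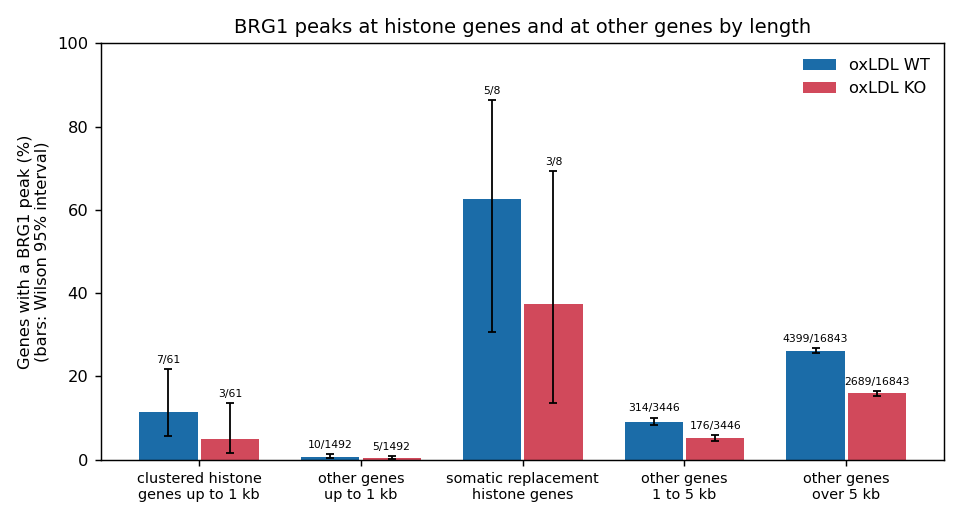
Share of genes with a BRG1 peak (vertical axis, percent) in the oxLDL WT and oxLDL KO lists, for clustered histone genes up to 1 kb, somatic replacement histone genes and other genes by length. Bars are shares with Wilson 95% intervals and the counts above them; the clustered genes reach 11.5% and the replacement genes 62.5% in oxLDL WT, against 0.67%, 9.11% and 26.1% of other genes up to 1 kb, from 1 to 5 kb and over 5 kb. The other genes include those on X and Y, where no list held a peak.

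Counting summits in place of genes removes the effect of neighbours that share a peak. The merged windows of the clustered genes covered 190.0 kb and held 6 distinct summits in oxLDL WT (31.6 per Mb) and 3 in oxLDL KO (15.8 per Mb). Windows of the somatic replacement genes covered 57.4 kb and held 5 and 3 summits (87.1 and 52.3 per Mb). Autosomal genes from 1 to 5 kb outside the family had 25.6 and 12.7 summits per Mb, those up to 1 kb without olfactory and vomeronasal receptors 10.4 and 5.22, and all autosomal protein-coding genes 7.21 and 3.51. By this measure the clustered windows, with 6 and 3 summits in all, were near those of other genes from 1 to 5 kb. They lay above those of other genes up to 1 kb, the length of 61 of the 66 clustered genes. The clustered windows also include long gene models without a summit, such as H2bc6 (37455 bp). The replacement windows, with 5 and 3 summits in all, lay higher than the clustered ones. These differences were not tested.

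Among the somatic replacement genes, oxLDL WT had a peak at 1 of 2 H1, 2 of 4 H2A and 2 of 2 H3 genes, and oxLDL KO at 1 of each type. H2ax (chromosome 9, 44334715 to 44336077) encodes H2A.X, which is phosphorylated around DNA breaks, and had the family's highest peak. Its oxLDL WT peak had a fold enrichment of 5.04 over local background, from a pileup of 23 fragments (exact Poisson 95% interval 14.6 to 34.5), and was 793 bp wide. This value stood at percentile 91.5 of the oxLDL WT list. It was the only histone peak with a −log10 q of at least 5, at 7.21, a limit that 25.4% of oxLDL WT peaks passed. At that limit 7.09% of all protein-coding genes kept a peak in the oxLDL WT list and 3.03% in that of oxLDL KO, and at a −log10 q of at least 2 it was 18.4% and 11.6%. The oxLDL KO list had no peak at H2ax.

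Both H3.3 genes, which encode the same protein, had a peak. H3f3b (chromosome 11, 116021961 to 116026039) had a fold enrichment of 3.57 in oxLDL WT and 3.85 in oxLDL KO, from 16 fragments in each. The 2 peaks overlapped by 248 bp with summits 415 bp apart, and the intervals of both pileups ran from 9.15 to 26.0. H3f3a (chromosome 1, 180802560 to 180813605) had 3.78 in oxLDL WT, from 17 fragments, and none in oxLDL KO. Its summit lay 943 bp into the gene.

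H1f0 (chromosome 15, 79028212 to 79030504) was the other replacement gene with overlapping peaks. Its fold enrichment was 2.94 in oxLDL WT, from 13 fragments (interval 6.92 to 22.2), and 4.53 in oxLDL KO, from 19 (interval 11.4 to 29.7). The summits lay 24 bp apart, and the whole oxLDL KO peak lay inside the wider oxLDL WT peak of 615 bp. The value was higher in oxLDL KO, but the pileup intervals overlap, and a fold enrichment is relative to each library's own background. H1f10 (chromosome 6, 87980421 to 87981482), the gene of linker histone H1.10, had no peak, and the nearest summits were 65.9 and 88.0 kb away.

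The H2A.Z genes differed from each other. H2az2 (chromosome 11, 6427226 to 6444511) had a peak in oxLDL KO alone, at 3.62 from 15 fragments, with its summit 143 bp into the gene. H2az1 (chromosome 3, 137864487 to 137866922) had none by the rule: the nearest oxLDL WT summit, with a fold enrichment of 4.1, lay 1.12 kb from its end, just outside the window. H2aj (chromosome 6, 136808248 to 136810074), which encodes the variant H2A.J, had 3.34 in oxLDL WT, from 15 fragments, and none in oxLDL KO.

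**Figure D2:**
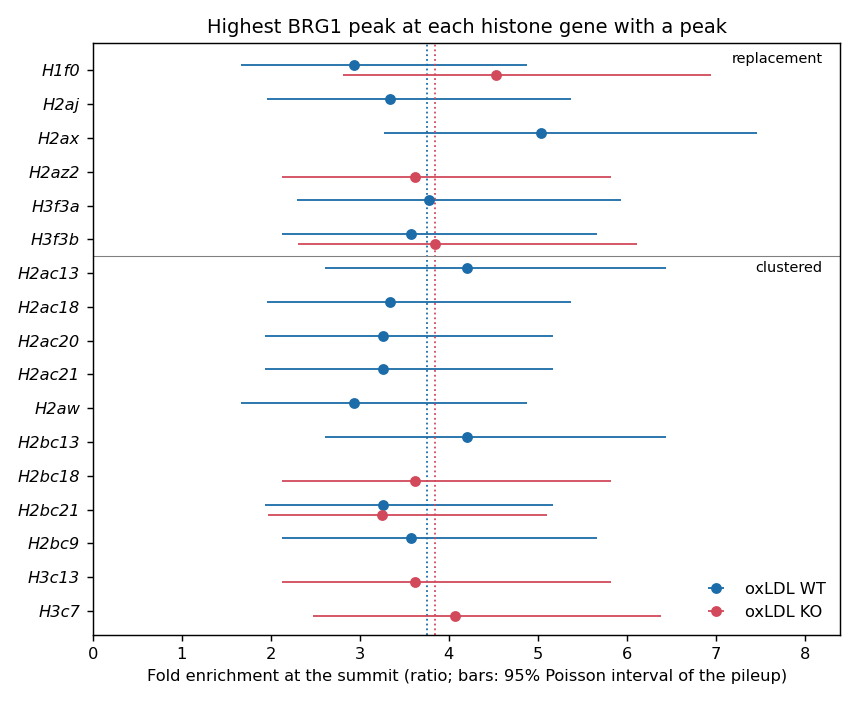
Highest fold enrichment (horizontal axis, a ratio over local background) of each of the 17 histone genes with a peak, in oxLDL WT and oxLDL KO, with bars for the exact Poisson 95% interval of the pileup and dotted lines at each list's median. H2ax stands highest at 5.04, H1f0, H3f3b and H2bc21 have a point in both lists, and the intervals of all genes overlap.

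The clustered genes with a peak were also counted by the histone they encode. In oxLDL WT, where 21.6% of all protein-coding genes had a peak, they were 5 of 18 H2A genes and 3 of 17 H2B genes, the partners of the H2A-H2B dimer. In oxLDL KO, where 13.1% did, they were 2 of 17 H2B genes and 2 of 12 H3 genes. Neighbours shared peaks, and 1 oxLDL WT peak counted for 3 of these genes. None of the 13 H4 genes and none of the 6 linker histone H1 genes of the clusters had a peak in either list. These groups are small, and whether the types differ was not tested.

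On chromosome 3, a group of 10 clustered genes in 50.3 kb (96219885 to 96270192) held 4 of the 8 clustered genes with a peak in oxLDL WT and, of the 4 in oxLDL KO, 3. These counts rest on 3 and 2 distinct summits. Over all protein-coding genes the shares with a peak were 21.6% and 13.1%, and over those up to 1 kb outside the family 0.67% and 0.335%. Whether this group differs from other genes was not tested. At its start, H2ac21, H2ac20 and H2bc21 lie side by side and shared oxLDL WT peaks. The first, with its highest point at 96220493 and a value of 3.26, counted for all 3 genes, and was the widest histone peak at 921 bp. The next, at 96221404, had 3.14 and counted for H2ac20 and H2bc21. H2bc21 (96221072 to 96223738) also had an oxLDL KO peak of 3.25, from 17 fragments, inside the gene, but its summit lay 2388 bp from the highest oxLDL WT one and the peaks did not overlap. H2bc21 was thus the only clustered gene counted in both lists, through peaks that did not overlap.

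Further along the same group, H2ac18 (96245497 to 96246052) had an oxLDL WT peak of 3.34 and H3c13 (96268654 to 96269155) an oxLDL KO peak of 3.62, which also counted for H2bc18, 577 bp away. A pair of overlapping peaks between the genes, 3.39 kb from H2bc21 and so outside the rule, had a fold enrichment of 4.2 (oxLDL WT) and 3.39 (oxLDL KO). The H2ac18 promoter shares 67.7% of its 50-base stretches with that of H2ac19. How reads with several matches were treated is not stated in the labels, and the part of such copies in these counts was not tested. Among the clustered genes without a peak, 10 of 53 promoter entries (H2bc6 has 2) shared such a stretch with another promoter and 8 shared more than 50% of them, including those of H3c14 and H3c15 and of H4c17 and H4c18. Among the 9 clustered entries with a peak, H2ac18 was the single such case, and no somatic replacement promoter shared any. Only promoters of protein-coding genes were compared. Copies of gene bodies, where most gene and peak pairs had the summit, and copies elsewhere in the genome were not searched.

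The histone group on chromosome 13 is the larger one. It falls into a block of 22 clustered genes in 328 kb and a block of 31 in 404 kb. In oxLDL WT 2 of the 22 and 1 of the 31 had a peak, and in oxLDL KO none and 1. Of all protein-coding genes 21.6% and 13.1% had one in these lists, and of those up to 1 kb outside the family 0.67% and 0.335%. In the first block, H2bc13 (21715711 to 21716183) and H2ac13 (21716412 to 21716859), a divergent pair with 228 bp between them, shared an oxLDL WT peak of 4.2 from 19 fragments, the highest among clustered genes, with its summit inside H2bc13. No oxLDL KO summit lay in this block. In the second, H2bc9 (23542923 to 23543444) had 3.57 in oxLDL WT and its neighbour H3c7 (23544052 to 23544954) had 4.07 in oxLDL KO, the highest clustered value of that list. These 2 summits lay 1572 bp apart in different genes. The oxLDL WT list held 2 further summits in the second block and 1 in the first, all more than 1 kb from any histone gene. On chromosome 11, H2aw (58954685 to 58955192) had 2.94 in oxLDL WT from 13 fragments, with a summit 770 bp outside its body that also counted for Trim17.

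**Figure D3:**
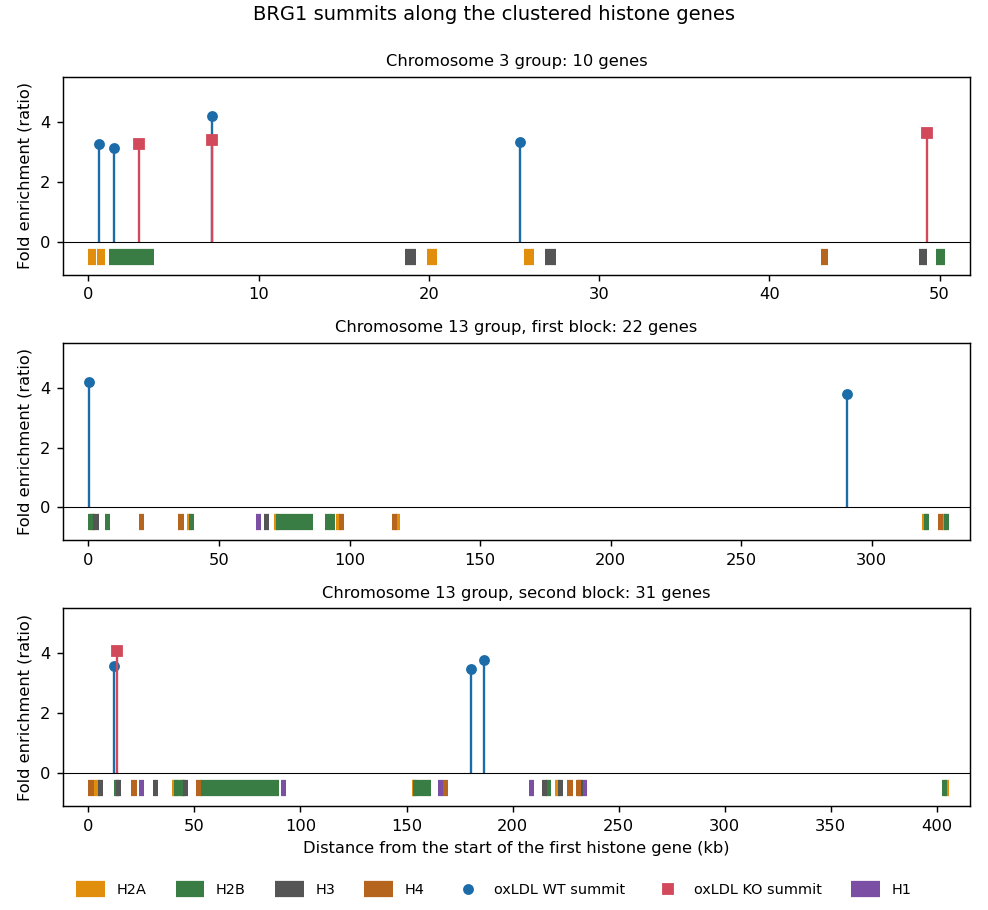
BRG1 summits along the 3 main blocks of clustered histone genes, as fold enrichment (vertical axis, a ratio) against distance from the first gene (horizontal axis, kb), with genes as coloured blocks below the line, widened where too short to see. The chromosome 3 group of 10 genes holds 4 oxLDL WT and 3 oxLDL KO summits, and the chromosome 13 blocks of 22 and 31 genes hold 2 and 3 oxLDL WT and 0 and 1 oxLDL KO summits.

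Most of the family's oxLDL WT peaks were low in their list. In oxLDL WT the 11 distinct summits had a median fold enrichment of 3.34, from 2.94 to 5.04, against 3.75 for the list, and 8 lay below the list's median. In oxLDL KO the 6 summits had a median of 3.73, from 3.25 to 4.53, against 3.85, and 3 lay below the list's median and 2 above it. Median pileups were 16.0 and 16.5 fragments, and 1 fragment more or less changes the fold by 0.21 and 0.226. The lowest pileup that the caller listed at the lowest background was 12 in each oxLDL list. A gene without a peak can therefore hold signal just under that of a gene with one, and a peak in 1 list alone does not show that the other library lacked BRG1 there. No histone peak lay in high local background, over 5 times the lowest of its list.

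Of the 17 histone genes with a peak in either oxLDL list, 3 were shared between genotypes. The 3 genes with a peak in both oxLDL lists (H1f0, H3f3b and H2bc21) were 23.1% of the 13 in oxLDL WT (interval 8.18 to 50.3) and 42.9% of the 7 in oxLDL KO (interval 15.8 to 75.0). Among all protein-coding genes 47.6% and 78.3% were shared, values that the oxLDL WT interval includes and the oxLDL KO interval does not. Of all genes 10.3% had a peak in both lists, against 2.94% of the histone genes. For the 80 autosomal histone genes it was 3.75% (interval 1.28 to 10.5). The 10.3% of all genes counts those on X and Y, where no list held a peak. All 2254 genes with a peak in both lists lie among the 20661 autosomal protein-coding genes, a share just above the end of that interval. The difference was not tested. A gene can count as shared through peaks that do not overlap, as H2bc21 did, and the part of gene length was not tested. By overlap, 2 of the 11 oxLDL WT summits and 2 of the 6 oxLDL KO summits belonged to peaks with a counterpart in the other list, at H1f0 and H3f3b. Peaks in oxLDL WT alone were found at 10 histone genes, and in oxLDL KO alone at 4 (H2az2, H2bc18, H3c13 and H3c7). The oxLDL WT list is longer, so more genes in it alone is also the pattern of all genes.

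Most gene and peak pairs had the summit inside the gene. In all 8 pairs of replacement genes it was in the body, and over the family in 15 of 22. These 22 pairs rest on 17 distinct summits, since neighbours share some. No share over all genes is given beside this count, so it does not set the histone genes apart. For the 17 pairs whose start is known, none of the summits lay in the promoter window of 250 bases before to 50 after the start, though 4 of the peaks reached into it, that of H1f0 in oxLDL WT by 109 bases. In oxLDL WT, 6 of 12 pairs had the summit from 50 to 500 bp downstream, against 26.5% of all 6452 pairs in the list, and in oxLDL KO 3 of 5, against 35.7% of 3171. Among pairs of genes from 1 to 5 kb the shares were 34.8% and 35.4%. Clustered bodies have a median of 491 bp, so much of such a body lies in that range. Whether the histone genes differ here was not tested. Over all pairs 5.02% and 4.35% of summits lay in the promoter window. With so low a share among all genes, none of 17 does not set the histone genes apart.

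**Figure D4:**
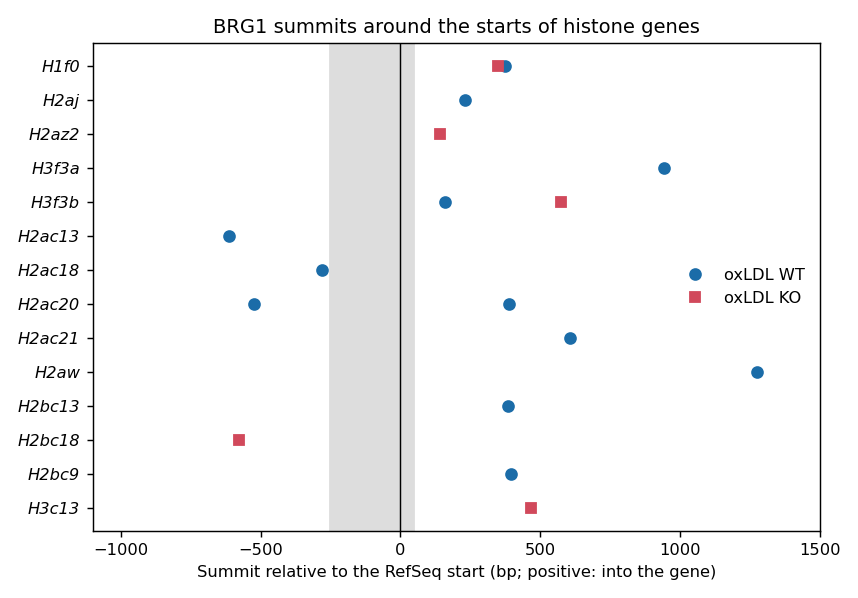
Position of each summit relative to the RefSeq start (horizontal axis, bp, positive into the gene) for the 14 histone genes with a peak and a known start, in oxLDL WT and oxLDL KO. The grey band is the promoter window, which holds no summit; the replacement genes lie from 143 to 943 bp into the gene, while H2ac13, H2ac18, H2ac20 and H2bc18 each have a summit upstream.

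The genes that drive histone production and deposition were read in the same way, from a list of 36. In oxLDL WT 11 had a peak (30.6%) and in oxLDL KO 6 (16.7%), where 26.1% and 16.0% of genes over 5 kb did, so the list was near genes of like length. None had one in the untreated lists. Of 5 transcription genes, Pou2f1, which encodes the octamer-binding factor OCT1, had a peak in both oxLDL lists (3.99 and 3.85). Npat, the coactivator of clustered histone genes, Casp8ap2, Hinfp and E2f1 had none. Of 11 genes of histone mRNA processing, Cpsf2 (3.36) and Cstf1 (3.15) had a peak in oxLDL WT alone and Cpsf3 (3.85), which encodes the nuclease that cuts histone pre-mRNA, in oxLDL KO alone. Slbp, whose product binds the stem-loop of histone mRNA, had none.

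Of 20 genes of histone chaperones and exchange factors, oxLDL WT had a peak at 8 and oxLDL KO at 4, and those 4 had one in both. They were Cabin1 (7.77 and 3.62) and Ubn1 (4.01 and 3.36), partners of HIRA in depositing H3.3, Asf1a (3.99 and 3.39), a chaperone of H3 and H4, and Nap1l4 (3.36 and 4.98), a chaperone of H2A and H2B. Hira itself had none, and Daxx, the other H3.3 chaperone, had 3.78 in oxLDL WT alone. Anp32e, whose product removes H2A.Z, had 4.03 and Nap1l1 3.14, also in oxLDL WT alone. So did Hjurp, with a lower fold enrichment of 2.41 from 42 fragments. Chaf1a and Chaf1b, which encode the CAF-1 subunits that deposit histones at replication, had none. With sharing this common among genes of the oxLDL KO list, 4 of 4 does not set the chaperone genes apart. Whether their shares differ from those of other genes was not tested.

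The cell type was read from peaks at marker genes, against 21.6% of all protein-coding genes with a peak in oxLDL WT, 13.1% in oxLDL KO, and 26.1% and 16.0% of those over 5 kb. Of 10 macrophage markers, oxLDL WT had a peak at 9 and oxLDL KO at 7, with Spi1 at 5.02 and 4.67, and Cd14 had none. Of 5 lymphocyte markers, Cd4 had a peak in oxLDL WT and Ms4a1 in both. The 9 hepatocyte, stromal and neuron markers had none. These lists are short, and 2 of 5 lymphocyte markers is not below the share of all genes.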

How the data were processed

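BRG1 ChIP-seq peak lists of 4 BMDM libraries were used, 1 per group, grouped by sample title. An enzymatic ChIP kit and paired-end sequencing were used, per the labels' protocols. Bowtie2, MACS3, bcl2fastq 2.17 and Trimmomatic 0.33 are listed with mm10, per the submitters' processing notes, and their settings are not given. The authors deposited for each peak a score (10 times the −log10 q), a fold enrichment (a ratio over local background), −log10 p and −log10 q values, and a summit offset. Genes, starts and promoters came from RefSeq tables on GRCm38.p6, the assembly of mm10.

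Computed here with Python 3.11.15, pandas 2.3.3 and scipy 1.17.1: a gene has a peak when a summit lies in its body or within 1 kb. Clustered genes have a symbol or older symbol of a histone cluster; H3f4, with neither, counts as another variant. The design had named current symbols alone, and older ones were added after seeing the gene table. Pileups were solved from fold and p, taking a pseudocount of 1, and came out whole, within 2% of the step between neighbouring pileups, for 99.99% of oxLDL WT and 99.96% of oxLDL KO peaks. Total reads are not in a peak list, and the lowest backgrounds, a measure of relative depth, were 2.7 (WT), 3.84 (KO), 3.76 (oxLDL WT) and 3.42 (oxLDL KO) fragments. The counting and the pileup solution were tested on simulated data. No test was run. Every histone gene with a peak is named, and of the regulators those with peaks in both oxLDL lists; other regulators were named after their values were seen. The members and lists were chosen with earlier results of these data known.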

Additional observations from a re-analysis of the deposited data

How the results depend on the processing

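The counts of 0 in the untreated lists stayed at 0 under every alternative run. The largest change came from keeping peaks with a −log10 q of at least 5. Histone genes then fell from 13 to 1 in oxLDL WT (H2ax) and from 7 to 0 in oxLDL KO, where 7.09% and 3.03% of all protein-coding genes still had a peak. In the same order, clustered genes then numbered 0 and 0, replacement genes 1 and 0, regulators 2 and 1, and genes shared by both oxLDL lists 0. At a −log10 q of at least 2, or with −log10 p limited to 5.33 and above, oxLDL WT kept 11 histone genes, without H1f0 and H2aw, and oxLDL KO 7. With summits in the body only, clustered genes with a peak fell from 8 to 4 in oxLDL WT. With summits within 5 kb they rose to 13 (oxLDL WT) and 7 (oxLDL KO), and the genes shared by both oxLDL lists rose from 3 to 7. Requiring the highest peaks to overlap by 50% of each left 0 shared genes. Gene ends only, any overlapping base, leaving out high-background peaks or genes on X and Y, and giving each summit to the nearest gene end each left the counts within 1.5 times. Counting somatic replacement genes only left the replacement counts at 5 and 3, but of 8 genes in place of 36, so the shares rose from 13.9% to 62.5% (oxLDL WT) and from 8.33% to 37.5% (oxLDL KO). Leaving out X and Y also kept the replacement counts at 5 and 3, but of 14 genes, so those shares rose too. Classing by current symbols alone, every alternative for regulators, and those for shared genes other than the overlap of peaks were added after seeing the data. No paired analysis was possible because each group has 1 library. The histone peaks rested on 13 to 23 fragments each, and the part of depth in the calls was not tested.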
